A study of Mus musculus with 8 samples.

Results

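The contractile apparatus of smooth muscle cells and myofibroblasts was followed through 10 genes: Acta2, Actg2, Myh11, Myl9, Tagln, Cnn1, Cnn2, Cald1, Smtn and Lmod1. They were taken by gene name from the deposited table of normalised read counts, where all 10 were found among 20681 rows. RNA was measured by poly-A sequencing in knee joints of mice, with 4 control libraries and 4 whose labels name a knockout of Loxl2, which encodes a collagen-crosslinking enzyme. Per the labels, all joints came from Acan-Cre;Loxl2 fl/fl mice, so the controls carry the same alleles, and the control animals received vehicle. The library names call the controls LOXL2wt and the others LOXL2ko, and those of both groups carry DMM, the common abbreviation of surgical destabilisation of the medial meniscus. The labels do not say what the knockout animals received in place of vehicle, nor the age, the sex or the time after injury. Acan drives Cre in cells that express aggrecan, which include chondrocytes. Nothing in the labels says that replicates are separate animals, so p-values measure the spread between these libraries.

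In smooth muscle, actin filaments slide along myosin filaments after the regulatory light chain of myosin has been phosphorylated, and proteins bound to actin tune that movement. The muscle isoforms of these proteins mark the walls of blood vessels. Fibroblasts that become myofibroblasts take up part of the same set, above all alpha smooth muscle actin. Many of the genes are switched on by serum response factor, which binds a short DNA element called the CArG box together with coactivators of the myocardin family. In a knee joint the vessel walls of synovium, fat, marrow and muscle are the main site of the set, and synovial fibroblasts can take it up after injury.

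The CArG box was looked for in the RefSeq promoter windows of build GRCm38.p6, each of 300 bases from 250 before to 50 after an annotated start. The element reads the same on either strand, so a match counts for both. Of 32851 windows, 1.63% held it, and 21.11% held it or a form with 1 letter off. Windows were found for 7 of the 10 genes, with 8 windows in all, since Cald1 has more than 1 start. Full matches stood in 2 of these 8 windows, those of Cnn2 and Myl9, and 5 held a full match or a form with 1 letter off. Actg2, Tagln and Myh11 had no entry. The matches found are shown because the element is a known control site of this gene set, each as 30 bases read 5′ to 3′ on the gene's own strand with the element in capitals. Distances are counted from the RefSeq start, which for each of these genes lies inside the outermost GENCODE gene limits given further on.
Cnn2, full match starting 56 bases before the start (chr10:79988534-79988563, plus strand): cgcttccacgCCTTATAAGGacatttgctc
Myl9, full match starting 161 bases before the start (chr2:156775293-156775322, plus strand): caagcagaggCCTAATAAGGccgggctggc
Myl9, 1 letter off, starting 99 bases before the start (chr2:156775355-156775384, plus strand): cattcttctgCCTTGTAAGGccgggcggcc
Acta2, 1 letter off, starting 84 bases before the start (chr19:34255438-34255467, minus strand): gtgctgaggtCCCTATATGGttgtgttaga
Acta2, 1 letter off, starting 34 bases before the start (chr19:34255388-34255417, minus strand): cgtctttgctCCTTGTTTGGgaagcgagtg
Lmod1, 1 letter off, starting 189 bases before the start (chr1:135324614-135324643, plus strand): gcccccttgtCTTTAAAAGGctaaactgct
Lmod1, 1 letter off, starting 164 bases before the start (chr1:135324639-135324668, plus strand): ctgctctgtaCTAAATTTGGtcacgcagcg
Cald1, 1 letter off, starting 203 bases before the start of its outer promoter (chr6:34598291-34598320, plus strand): acggtttcaaGCTTTTTAGGacttggtttt
A match is a description of these letters and not of binding.

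The 200 bases before the GENCODE gene start, which lies upstream of the RefSeq start used above, are given for Cnn2, the gene with the largest rise of the set, and for Lmod1, its one fall, with the same elements in capitals.
Cnn2 (chr10:79988384-79988583, plus strand): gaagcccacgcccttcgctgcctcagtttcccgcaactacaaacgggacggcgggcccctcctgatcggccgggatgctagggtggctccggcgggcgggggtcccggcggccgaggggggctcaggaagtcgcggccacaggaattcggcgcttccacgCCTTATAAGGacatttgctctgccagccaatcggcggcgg
Lmod1 (chr1:135324607-135324806, plus strand): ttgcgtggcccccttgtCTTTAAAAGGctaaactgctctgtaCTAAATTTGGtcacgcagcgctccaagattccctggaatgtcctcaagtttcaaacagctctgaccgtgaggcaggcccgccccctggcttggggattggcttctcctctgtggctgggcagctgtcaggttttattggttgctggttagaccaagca

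The libraries held 13991000 to 17411617 reads assigned to genes. Values are normalised read counts, that is, reads divided by the size factor of the library. Loxl2 itself had 282, 349, 1135 and 311 in the controls, by replicate number, and 893, 1468, 960 and 1518 in the libraries labelled knockout. It was thus higher where the label names a knockout (limma adjusted p = 0.0294, exact permutation p = 0.0857), with groups that overlapped. Counts per gene from joint tissue also cover cells that do not express aggrecan, so they cannot show whether the deletion took place. Each group keeps its label as its name here. Muscle fibres filled much of the libraries: 17 listed skeletal muscle genes summed to 2196163 to 2319887 in the controls and 1030361 to 1483914 in the libraries labelled knockout. The cartilage genes Acan and Col2a1 were present at means of 221 ± 222 and 1045 ± 1143 (SD, n = 4) in the control group. In bulk tissue, fewer cells of a type and less RNA per cell cannot be told apart.

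Of the 10 contractile genes, all were abundant enough to test, 2 rose (Cnn2 and Cald1), 1 fell (Lmod1) and 7 were not called in the libraries labelled knockout. Calls rest on an adjusted p below 0.05 in a limma fit of log2 values over 14949 genes. Over all genes tested, 11.6% were called higher and 11.6% lower, together 23.2%, so that 3 calls among 10 genes lie near the background. With a scaling that left out muscle genes, blood genes and the 50 most abundant genes, 77.8% of all calls were higher, against 50.04% here, and the same 3 contractile genes were called. The median log2 difference (libraries labelled knockout minus control) was -0.02 over the 10 genes and 0.00 over all genes tested. The same 3 genes had groups that did not overlap, which was so for 25.1% of all genes tested.

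**Figure D1:**
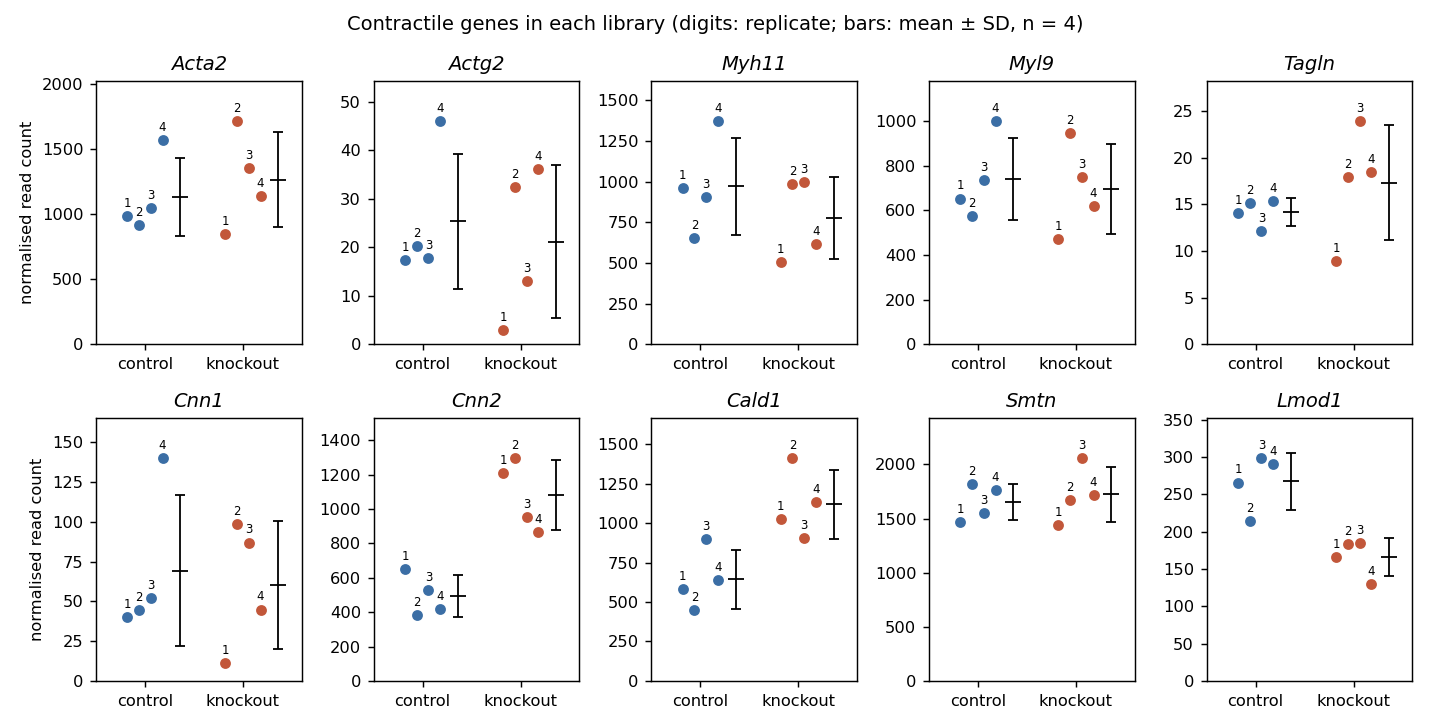
Normalised read count of each contractile gene (vertical axis, from 0, own scale per gene) in 4 control libraries (blue) and 4 libraries labelled knockout (red), with the replicate number at each point and the mean ± SD as a bar. The groups are apart for Cnn2, Cald1 and Lmod1 and overlap for the other 7 genes.

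The actins come first. Acta2 (chromosome 19, 34241090 to 34255590, minus strand) encodes alpha smooth muscle actin, the classic marker of vessel wall and myofibroblast. Its normalised counts were 990, 919, 1045 and 1575 in the controls, by replicate number, and 847, 1717, 1357 and 1141 in the libraries labelled knockout. The lowest and the highest of the 8 values both lay in the group labelled knockout, so the groups overlapped fully. The means were 1132 ± 300 and 1265 ± 366 (SD, n = 4), a log2 difference of 0.15 ± 0.22 (SE, limma adjusted p = 0.665, exact permutation p = 0.600). The 95% interval ran from -0.35 to 0.65, which leaves room for a fold between 0.783 and 1.57. Acta2 had 849 to 2007 reads per library. Of the 50-base stretches of the longest coding Acta2 transcript, 0.35% occurred unchanged in transcripts of other genes, among them Actg1.

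Actg2 (chromosome 6, 83512905 to 83536265, minus strand) encodes gamma smooth muscle actin, the form of gut and other visceral muscle. It was scarce, at 17.3, 20.2, 17.8 and 46.0 in the control libraries and 2.99, 32.5, 13.05 and 36.1 in those labelled knockout. Control replicate 4 stood above the other controls, and knockout replicate 1, with 3 reads, below every other library. The log2 difference was -0.57 ± 0.68 (SE, limma adjusted p = 0.566), and its 95% interval of -2.08 to 0.93 says little about a change in either direction. From the recovered reads edgeR gave -0.22 and DESeq2 -0.24, and without knockout replicate 1 the limma difference was 0.10.

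The myosin genes were not called either. Myh11 (chromosome 16, 14194535 to 14291372, minus strand) encodes the smooth muscle myosin heavy chain, which fibroblasts express little. Its counts were 963, 652, 904 and 1371 in the control libraries and 507, 985, 996 and 617 in those labelled knockout. Knockout replicates 1 and 4 lay below every control, and replicates 2 and 3 lay among the controls. The means of 972 ± 298 and 776 ± 252 (SD, n = 4) gave a log2 difference of -0.34 ± 0.26 (SE, limma adjusted p = 0.381, exact permutation p = 0.400, 95% interval -0.92 to 0.25). It was -0.15 without control replicate 4 and likewise without knockout replicate 1, and -0.51 without control replicate 2.

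Myl9 (chromosome 2, 156775420 to 156781658, plus strand) encodes the regulatory light chain whose phosphorylation starts contraction. It had 653, 574, 735 and 1000 in the control libraries and 473, 948, 750 and 621 in those labelled knockout. Its order of libraries within each group was that of Acta2, with control replicate 4 and knockout replicate 2 at the top and control replicate 2 and knockout replicate 1 at the bottom. The log2 difference was -0.10 ± 0.22 (SE, limma adjusted p = 0.772, exact permutation p = 0.743), with a 95% interval of -0.60 to 0.40, and it was 0.050 under the scaling without muscle, blood and top genes.

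Among the proteins that bind actin filaments, calponins and caldesmon restrain the myosin ATPase. Cnn2 (chromosome 10, 79988584 to 79996062, plus strand) encodes calponin 2, which is also made by fibroblasts, macrophages and other cells that are not muscle. Its counts were 652, 383, 529 and 416 in the control libraries and 1212, 1297, 953 and 867 in those labelled knockout. Every library labelled knockout lay above every control. The means of 495 ± 122 and 1082 ± 205 (SD, n = 4) gave a 2.20-fold rise, a log2 difference of 1.14 ± 0.19 (SE, limma adjusted p = 0.00549, exact permutation p = 0.0286, the smallest that 4 against 4 can give). The call was kept under all 19 alternative settings.

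Cald1 (chromosome 6, 34598500 to 34775473, plus strand) encodes caldesmon, with a long form in smooth muscle and a short form in most other cells, which gene counts do not separate. It had 585, 451, 897 and 642 in the control libraries and 1024, 1415, 904 and 1137 in those labelled knockout. The groups did not overlap, though control replicate 3 and knockout replicate 3 were almost level. The means rose from 644 ± 187 to 1120 ± 218 (SD, n = 4), a log2 difference of 0.82 ± 0.20 (SE, limma adjusted p = 0.0193, exact permutation p = 0.0286). That call was lost without knockout replicate 2 (log2 difference 0.70, limma adjusted p = 0.0503) and without knockout replicate 4 (0.81, limma adjusted p = 0.0548). Over the 19 alternatives the limma, edgeR or DESeq2 adjusted p ran from 0.00187 to 0.0756.

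Cnn1 (chromosome 9, 22099216 to 22109630, plus strand) encodes calponin 1, the smooth muscle form. Its counts were low and scattered, at 40.0, 44.4, 52.3 and 140 in the control libraries and 11, 98.4, 87.0 and 44.9 in those labelled knockout. The highest value of all was a control and the lowest a library labelled knockout. With a log2 difference of -0.39 ± 0.65 (SE, limma adjusted p = 0.698), its 95% interval ran from -1.84 to 1.06. Its sign rested on single libraries, since the difference was 0.015 without control replicate 4 and 0.27 without knockout replicate 1. From the recovered reads edgeR gave -0.18 and DESeq2 -0.19.

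Tagln (chromosome 9, 45929619 to 45936058, minus strand) encodes transgelin, an abundant actin-binding protein of smooth muscle. It was listed at 14.1, 15.1, 12.2 and 15.3 in the control libraries and 8.98, 18, 23.9 and 18.5 in those labelled knockout, the lowest mean of the 10 genes. Its 9 to 22 reads per library stand beside 849 to 2007 for Acta2. In the GENCODE M21 annotation 67.9% of its exon length is also covered by exons of genes on the opposite strand, 62.4% by Gm48529 and 5.43% by Pcsk7. The authors' use of strand and their annotation are not given in the sources used here, so these counts need not reflect the transcript's abundance. Gm48529 was itself listed at means of 14.8 and 13.2 in the control libraries and those labelled knockout, and Pcsk7 at 347 and 337. Tagln showed a log2 difference of 0.20 ± 0.35 (SE, limma adjusted p = 0.702, 95% interval -0.57 to 0.98), and -0.052 after quantile normalisation. The difference was 0.47 without knockout replicate 1 (limma adjusted p = 0.312, exact permutation p = 0.0286) and 0.031 without knockout replicate 3. That exact p is unadjusted and the smallest that 3 against 4 can give. Of the other genes of the set, Smtn alone shares exon length with annotated genes, all on the opposite strand, and Gm11946 covers 16.3% of it.

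Smtn (chromosome 11, 3517523 to 3540612, minus strand) encodes smoothelin, which binds actin in contractile smooth muscle. It varied little, at 1472, 1816, 1548 and 1762 in the control libraries and 1444, 1673, 2061 and 1722 in those labelled knockout. The log2 difference was 0.06 ± 0.12 (SE, limma adjusted p = 0.750, exact permutation p = 0.657). Its 95% interval, -0.20 to 0.32, was the narrowest of the set and kept the fold between 0.868 and 1.25.

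Lmod1 (chromosome 1, 135324807 to 135368065, plus strand) encodes leiomodin 1, which starts new actin filaments in smooth muscle cells. It had 266, 215, 299 and 290 in the control libraries and 167, 184, 185 and 130 in those labelled knockout. Every library labelled knockout lay below every control. The means fell from 268 ± 37.7 to 166 ± 25.5 (SD, n = 4), a log2 difference of -0.68 ± 0.16 (SE, limma adjusted p = 0.0148, exact permutation p = 0.0286). The fold was 0.622, with a 95% interval of 0.489 to 0.791. Leaving out any 1 library kept the call. The skeletal muscle list moved the same way, with 9 of 17 tested genes called lower and 0 higher (median log2 difference -0.70), and its part in the Lmod1 difference was not tested.

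**Figure D2:**
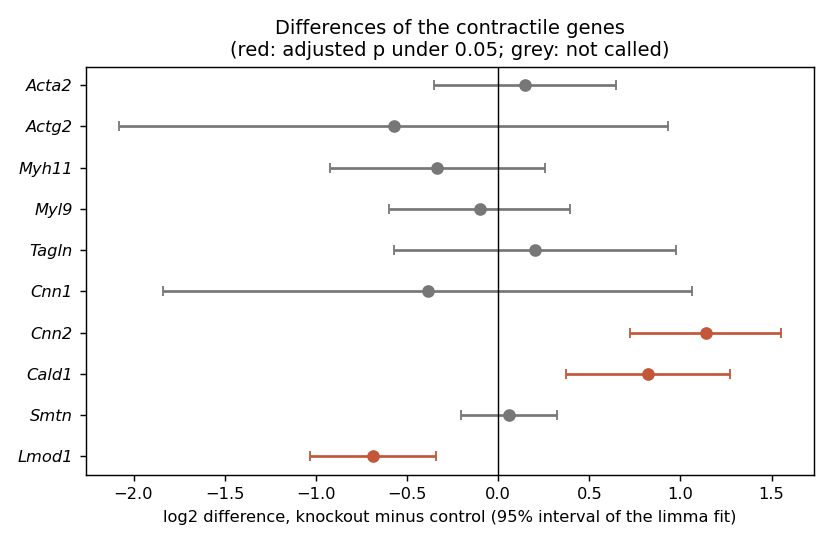
Log2 difference of each contractile gene between libraries labelled knockout and control (horizontal axis), with the 95% interval of the limma fit, n = 4 per group. Cnn2 and Cald1 lie above 0 and Lmod1 below 0 (red, called), and the intervals of the other 7 genes (grey) span 0, most widely for Actg2 and Cnn1.

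Levels of different genes were compared per kilobase of merged exons. In the control group Myl9 led with 637 normalised reads per kilobase, followed by Acta2 (516), Smtn (377), Cnn2 (201.2) and Myh11 (128). The lower ranks were Lmod1 (67.8), Cald1 (53.5), Cnn1 (25.3), Actg2 (16.3) and Tagln (7.13). The limit given above for the Tagln counts holds here too, so its last rank need not reflect its abundance. The libraries of Myl9 and Acta2 overlapped, at 494 to 861 and 418 to 717 per kilobase, as did those of Lmod1 and Cald1, at 54.5 to 75.8 and 37.5 to 74.5, and those of Cnn1 and Actg2, at 14.6 to 51.2 and 11.1 to 29.5. Cnn2 and Myh11 also overlapped, at 156 to 265 and 85.8 to 180, and so did Cald1 and Cnn1. These are ranges across libraries. Within each control library Myl9 lay above Acta2, Lmod1 above Cald1, Cnn1 above Actg2 and Cald1 above Cnn1. Cnn2 lay above Myh11 in all controls but replicate 4. Acta2 and Smtn (336 to 415), Smtn and Cnn2, Myh11 and Lmod1, and Actg2 and Tagln did not overlap. In the libraries labelled knockout Cnn2 reached 352 to 527 per kilobase and overlapped Smtn, at 330 to 471. There Cald1 (75.1 to 117) lay above Lmod1 (33.0 to 46.8) in every library, the reverse of their order in each control library. The merged exons of Cald1 span 12041 bases over several forms, so its level per kilobase is a low estimate for any single form.

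Part of the variation ran across libraries rather than groups. Knockout replicate 1 was the lowest library of its group for 7 of the 10 genes (Acta2, Actg2, Tagln, Cnn1, Myh11, Myl9 and Smtn). Control replicate 4 was the highest of its group for 6 (Acta2, Actg2, Tagln, Cnn1, Myh11 and Myl9). Cnn2 went another way, with knockout replicate 1 among its 2 highest values. The range within a group was widest for Actg2, with 12.1-fold between the lowest and highest library labelled knockout, and for Cnn1, with 8.97-fold. For Lmod1 it was 1.42-fold. The same libraries also differed in other markers: 12 endothelial genes summed to 5747 in knockout replicate 1, the lowest of all libraries, and to 7330 in control replicate 4, the lowest control. A set of 7 erythroid genes summed to 98968 in control replicate 4, the highest of all. The part of these differences in the contractile genes was not tested.

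**Figure D3:**
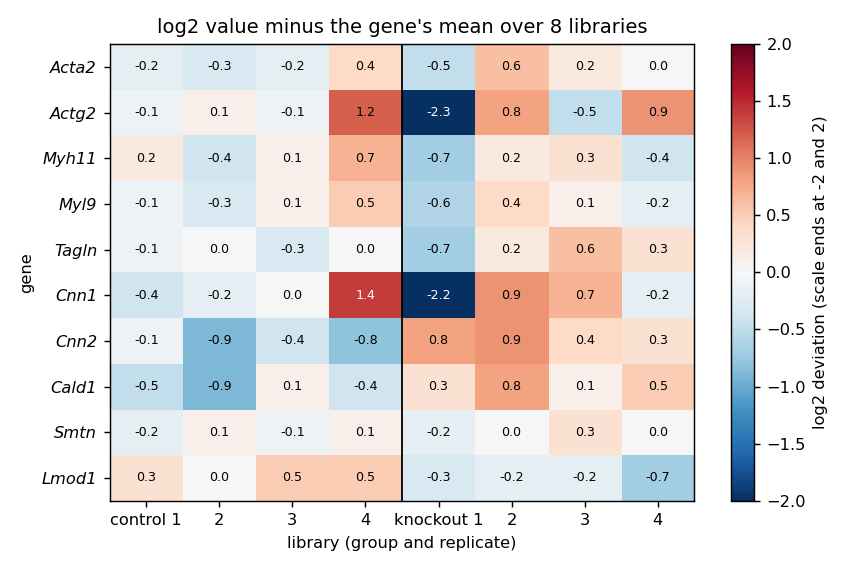
Each cell gives the log2 value of a contractile gene (rows) in a library (columns, control then knockout) minus the mean of that gene over the 8 libraries, rounded to 1 decimal, in red where higher and blue where lower. Knockout replicate 1 is blue for 8 of the rows, Lmod1 among them, and control replicate 4 red for most of the same genes. Cnn2, Lmod1 and, apart from control replicate 3, Cald1 follow the groups. For Lmod1, control replicate 2 lies near the mean of the gene.

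With control replicate 4 and knockout replicate 1 left out together, an alternative chosen after seeing the data, Cnn2 was still called higher (log2 difference 1.01, limma adjusted p = 0.0434). Cald1 (0.87, limma adjusted p = 0.0756) and Lmod1 (-0.65, limma adjusted p = 0.0791) kept their direction but not their call. In the same fit of 3 libraries against 3, Acta2 stood at 0.49 (limma adjusted p = 0.0830) and Myh11 at 0.031 (limma adjusted p = 0.942). Over all genes that fit made 908 calls in place of 3461.

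The likeness of patterns was measured as the root mean square distance between log2 values over the 8 libraries, with each gene centred on its own mean. Genes were not scaled to equal spread, so a wide range alone can place a gene far from another that orders the libraries alike. Acta2 and Myl9 were 0.13 apart, Myh11 and Myl9 0.19, and Acta2 and Myh11 0.29. Cnn2 was 0.67 from Acta2 and 0.87 from Myh11, farther than the median gene (0.43 and 0.48 over 11632 genes with a mean of at least 50). So were Actg2 (0.85 from each), Cnn1 (0.73 and 0.67) and Cald1 (0.49 and 0.71). For Actg2 and Cnn1, the genes of widest range, this need not mean another pattern. Both had control replicate 4 highest and knockout replicate 1 lowest of their groups, as had Acta2 and Myh11. Actg2 and Tagln had means below 50, unlike the genes behind the median. Lmod1 was farther than that median from Acta2 (0.51) but not from Myh11 (0.35). Tagln (0.31 and 0.44) and Smtn (0.30 and 0.42) were nearer than the median to each. Outside the set, the 5 genes nearest to Acta2 were Cdr2, Rapgef5, Ccdc32, Adcy5 and Eln, at 0.13 to 0.17. Eln encodes elastin, the stretchable fibre of artery walls. The 5 nearest to Myh11 were Dll1, Fhl3, Ypel4, Bcam and Lrfn3, at 0.14 to 0.22. Dll1 encodes a Notch ligand. None of these 10 genes was called between the groups by limma.

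Ratios within a library depend on its scaling only through the 1 added to each value (the pseudocount), which weighs on low genes. Compared were 8 pairs. Acta2 to Actg2, for one, differed between the groups by 0.53 with a pseudocount of 5 and by 0.80 with 0.1. Acta2 to Myh11 had log2 ratios of 0.04, 0.49, 0.21 and 0.20 in the control libraries and 0.74, 0.80, 0.45 and 0.89 in those labelled knockout. Control replicate 2 lay above knockout replicate 3, and all other controls lay below all libraries labelled knockout. The mean moved from 0.24 ± 0.19 to 0.72 ± 0.19 (SD, n = 4), a difference of 0.48 (exact permutation p = 0.0571, adjusted over the 8 ratios 0.114). Cald1 to Myh11 differed by 1.16, from -0.59 ± 0.45 to 0.57 ± 0.52, with the same exact permutation p of 0.0571, and control replicate 3 overlapping knockout replicate 3. Cnn2 to Cnn1 differed by 1.53 (exact permutation p = 0.114), with the lowest ratio, 1.56, in control replicate 4 and the highest, 6.66, in knockout replicate 1. Acta2 to Acta1, smooth against skeletal muscle actin, differed by 0.83 (exact permutation p = 0.0571). The remaining pairs were Acta2 to Actg2 (0.72), Tagln to Myh11 (0.54), Tagln2 to Tagln (0.66) and Cnn3 to Cnn1 (1.69). The limit given above for the Tagln counts applies to its pairs as well. All 8 differences were above 0. The pairs were chosen with earlier results of these data known and several share a gene, so the common sign adds no support. The adjusted exact permutation p-values ran from 0.114 to 0.371, so none passed 0.05. The smallest exact permutation p that 4 against 4 can give is 0.0286. After adjustment over 8 ratios, a single pair with groups fully apart could therefore not have passed either. Without knockout replicate 1 the difference fell to 0.81 for Cnn2 to Cnn1, 0.99 for Cnn3 to Cnn1 and 0.22 for Acta2 to Actg2, and without knockout replicate 4 the last was 1.15.

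**Figure D4:**
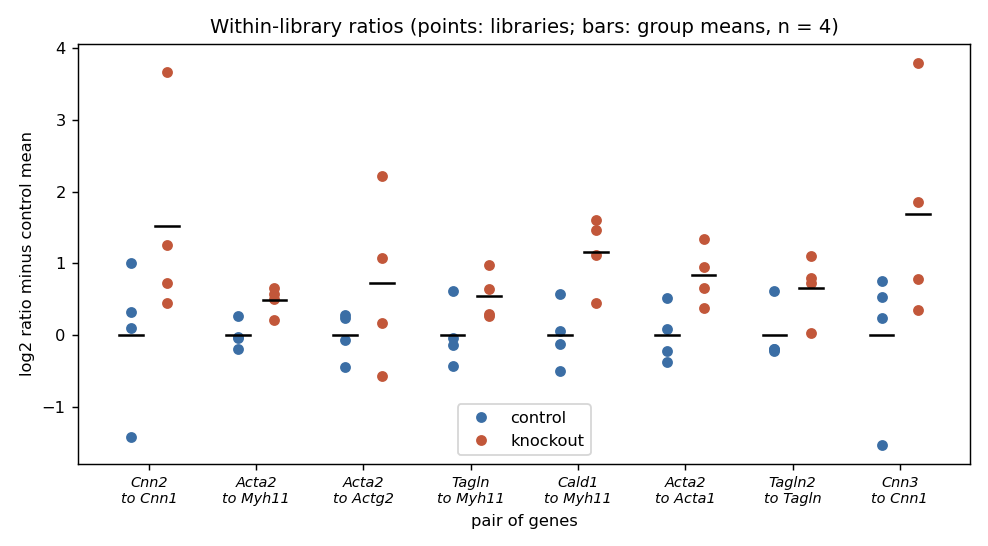
Within-library log2 ratio of each pair of genes, minus the control mean (vertical axis), for 4 control libraries (blue) and 4 libraries labelled knockout (red), with group means as bars. The means of the libraries labelled knockout lie above the controls for all 8 pairs, by 0.48 to 1.69, and the groups overlap in each pair. The pairs were chosen with earlier results of these data known, and several share a gene.

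Of 15 tested paralogues 6 rose, 4 fell and 5 were not called, with a median log2 difference of -0.25. Over all genes tested 23.2% were called, which is the background for this list and those below. Cnn3, the calponin of cells other than muscle, rose from 523 ± 154 to 1279 ± 235 (SD, n = 4), a log2 difference of 1.31 ± 0.20 (SE, limma adjusted p = 0.00462). Cnn3 shares 17.7% of its exon length with Gm42928 on the opposite strand. Tagln2, the transgelin of many cell types, rose by 0.87 (limma adjusted p = 0.00945). The cytoplasmic actins Actb and Actg1 rose by 0.58 and 0.71, nonmuscle myosin Myh9 by 0.49 and the light chain Myl6 by 0.46. Smtnl2, a smoothelin-like gene of muscle, fell by 1.12 on the log2 scale, and Lmod2 and Lmod3, the leiomodins of striated muscle, fell by 0.57 and 0.49. Myh10, another nonmuscle myosin, fell by 0.60, with groups that overlapped. The light chain genes Myl12a (-0.25, limma adjusted p = 0.0566, groups apart) and Myl12b (0.36, limma adjusted p = 0.362) were not called. Acta1, the skeletal muscle actin, was not called either (-0.68, limma adjusted p = 0.0934), although its groups did not overlap.

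The enzymes and channels that control contraction gave 2 rises, 1 fall and 11 genes not called of 14 tested, with a median of -0.10. Mylk, the kinase of the myosin light chain, had means of 532 ± 84.2 and 807 ± 100 (SD, n = 4) and rose by 0.61 (limma adjusted p = 0.0142). Cacna1c, a calcium channel subunit, rose by 0.63 (limma adjusted p = 0.0216). Ppp1r12b, a targeting subunit of myosin phosphatase that is abundant in striated muscle, fell by 0.81 (limma adjusted p = 0.0148). The phosphatase inhibitor Ppp1r14a (-0.32) was not called.

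Among the regulators of the contractile programme, 1 of 13 tested genes rose, 3 fell and 9 were not called, with a median of -0.02. These calls stand beside 23.2% called over all genes tested. Srf, the CArG box factor itself, fell from 1612 ± 179 to 1211 ± 109 (SD, n = 4), a log2 difference of -0.41 ± 0.10 (SE, limma adjusted p = 0.0202). Klf5 fell by 0.51 and Foxo4 by 0.42. The skeletal muscle list fell as well (median -0.70), and its part in these 3 falls was not tested. Csrp2, which encodes a LIM protein of smooth muscle, rose by 1.33 (limma adjusted p = 0.0167), with groups that overlapped. The coactivator genes Mkl1 (-0.18) and Mkl2 (-0.11) were not called, and Myocd, with means of 4.51 in the controls and 6.44 in the libraries labelled knockout, was too low to test.

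The cells that could carry the contractile genes were followed by marker lists. Of 12 endothelial genes 0 were called by limma, with a median of -0.08. In that list 0 genes had an unadjusted p under 0.05, and summed levels were 7330 to 9393 in the controls and 5747 to 12038 in the libraries labelled knockout. Of 10 pericyte genes 2 rose, 1 fell and 7 were not called, with a median of 0.18 and sums of 10132 to 12361 and 9863 to 13375. The pericyte genes that rose were Pdgfrb (0.88) and Cspg4 (0.74), which fibroblasts express too. Rgs5, 1 of the 7 not called, stood at 4096 ± 588 and 4538 ± 865 (SD, n = 4). Abcc9, which muscle fibres express as well, fell by 0.49. The part of fibroblasts and of muscle fibres in these pericyte calls was not tested.

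Fibroblast genes moved further. Of 10 tested, 7 rose and 3 were not called, with a median of 1.45 and summed levels of 38853 to 119457 in the controls and 161765 to 264593 in the libraries labelled knockout. The myofibroblast-associated genes, which are linked with activated fibroblasts, gave 7 rises, 1 fall and 5 not called of 13 tested, with a median of 1.71. Postn rose by 3.42, Col12a1 by 2.86 and Itga11 by 1.71. The macrophage list rose in 7 of 7 genes, with a median of 1.45 and sums of 1357 to 3161 and 4839 to 6608. Of 8 chondrocyte genes 1 rose and 7 were not called, with a median of 0.82. These lists were chosen with earlier results of these data known. Their part in the rises of Cnn2 and Cald1 was not tested.

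**Figure D5:**
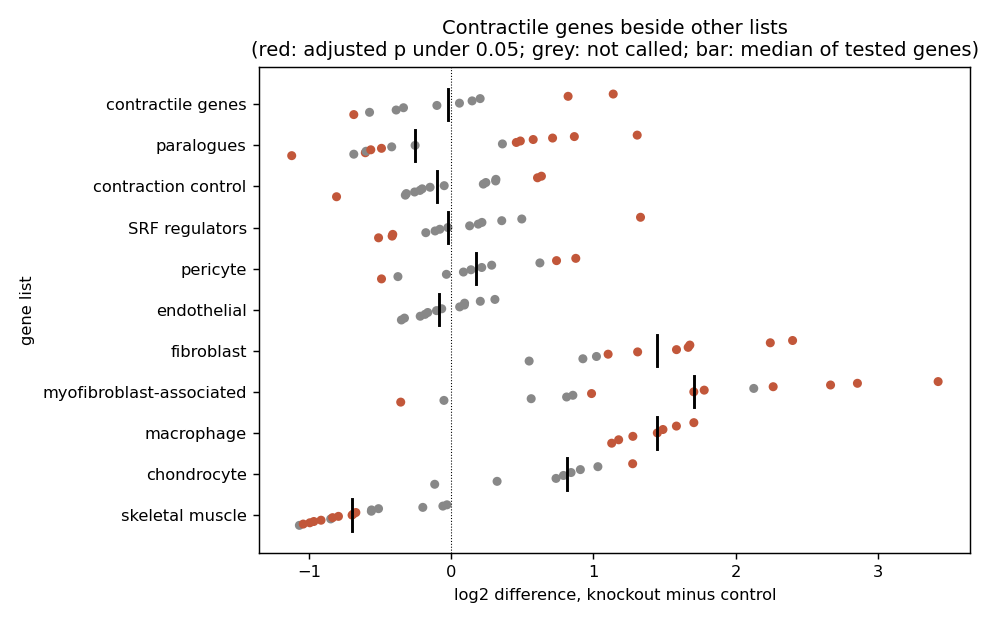
Log2 difference between libraries labelled knockout and control (horizontal axis) for each tested gene of 11 lists (rows), red where called and grey where not, with the list's median as a black bar. The contractile genes have a median of -0.02, near those of the endothelial (-0.08) and contraction control (-0.10) lists, while the fibroblast (1.45), myofibroblast-associated (1.71) and macrophage (1.45) medians lie higher and the skeletal muscle median (-0.70) lower.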

How the data were processed

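The deposited values are a normalised signal, 1 per gene and library. Per the labels and the submitters' processing notes, the authors aligned reads to mm10 with HISAT2, counted them per gene with featureCounts and normalised and filtered them with DESeq2; versions, annotation, strand setting and treatment of multimapping reads are not given in the sources used here. In each library 100% of the values were whole multiples (tolerance 0.001) of 1 step, and size factors recomputed from those whole reads equalled the inverse of the step (0.913 to 1.17). In 2 libraries, control replicate 2 and knockout replicate 1, the step lay within 0.01 of 1, where the step alone says little about whether reads were recovered; both still enter the count-based fits. A gene was tested where 4 or more libraries had a value of 10 or more (14949 genes), on log2(value + 1) with limma 3.58.1 (trend), with Benjamini-Hochberg adjustment. Differences are of mean log2(value + 1): the pseudocount shrinks those of low genes (Cnn1 -0.39, against -0.41 with a pseudocount of 0.1), and a difference of mean logs is not the log fold of means that the count-based fits give. On the recovered reads edgeR 4.0.16 called 3324 genes and DESeq2 1.42.0 called 4125, against 3461 by limma. In the 12 within-group pairs, libraries differed beyond counting noise (chi-square per degree of freedom 25.79 to 66.1), so none was a copy of another. Single values and ratios were compared by exact two-sided permutation tests over 70 assignments, or 35 where 1 library was left out.

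Coordinates and exon lengths are from GENCODE M21, on the build of mm10. The 10 genes, the lists and the pairs were chosen with earlier results of these data known. Named genes were the 10 members, Loxl2, both genes of each pair, at most 3 genes of smallest p from each list and the 5 genes nearest in pattern to Acta2 and to Myh11; further paralogues, regulators, markers and overlapping genes were named after their values were seen. Alternatives were other pseudocounts, filters, scalings and tools, the replicate number as a block, and leaving out each library.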

Additional observations from a re-analysis of the deposited data

Results flagged for a closer look

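Within a group of 4 libraries, 12 of 108 gene and group combinations examined had 1 library far from the other 3 (a gap to the nearest that took most of the group's range, by Dixon's criterion), and chance flags about 1 in 20. Among the contractile genes these were Actg2 (46.0) and Cnn1 (140) in control replicate 4, where the nearest controls had 20.2 and 52.3. Mylk stood apart in control replicate 2 (407, nearest 561) and in knockout replicate 1 (956, nearest 770). Among paralogues, Cnn3 was low in knockout replicate 3 (928, nearest 1381) and Smtnl2 low in knockout replicate 4 (2085, nearest 3131). Knockout replicate 4 was also low for Foxo4 (1992, nearest 2519), and knockout replicate 3 for Lum (4425, nearest 10141). Control replicate 3 stood apart as high for Itga11 (395, nearest 192), Prg4 (29856, nearest 12028) and Loxl2 (1135, nearest 349). Col12a1 was high in knockout replicate 1 (8266, nearest 4783).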

How the results depend on the processing

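Cnn2 kept its direction and call under all 19 alternatives, and Lmod1 under 18, with log2 differences of 1.01 to 1.29 and -0.82 to -0.53. The count of contractile genes called higher was 1 to 2 over the fits that left out a library, and the count called lower was 1. The number of all genes called ran from 1751 to 3841 over those fits (1751 without knockout replicate 4, 1887 without control replicate 2, 2194 without control replicate 4). With control replicate 4 and knockout replicate 1 both left out, added after seeing the data, 908 genes were called, 1 contractile gene higher and 0 lower, and 4 of the genes that were not called changed sign (Actg2 0.42, Cnn1 0.67, Myh11 0.031, Myl9 0.23). Myh11 ran from -0.51 to -0.15 and Tagln from 0.031 to 0.47 over the fits that left out a library. Signs of other uncalled genes crossed 0 in fits that left out a library: Acta2 -0.015 to 0.32, Actg2 -0.97 to 0.10, Cnn1 -0.75 to 0.27, Myl9 -0.26 to 0.071 and Smtn -0.031 to 0.14. Scaling on genes other than muscle, blood and the 50 highest moved the median of all genes to 0.15 and the share of calls that were higher from 50.04% to 77.8%; Myl9 became 0.050, Acta2 0.30, Tagln 0.34, Myh11 -0.18 and Smtn 0.21. Tagln became -0.052 under quantile normalisation. Correlations of deviations across genes were 0.21 for the libraries numbered 1 but -0.12, -0.23 and -0.06 for numbers 2 to 4, so the numbers were not taken to pair the samples. With the replicate block 2018 genes were called and 1 contractile gene higher, as Cald1 lost its call (limma adjusted p = 0.0584). The causes of these changes were not tested. Actg2, Cnn1 and Tagln rested on 3 to 128 reads per library, and how much of their spread is counting error was not tested.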

Other observations

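The low listing of Tagln had a counterpart in skeletal muscle. Tnnc2 encodes the fast form of troponin C, a partner of Tnni2 and Tnnt3 in the thin filament of fast fibres. Tnnc2 was listed at 11.9 ± 3.37 in the controls and 12.2 ± 5.55 in the libraries labelled knockout (SD, n = 4), where Tnni2 had 104219 ± 8326 and 73309 ± 7892. In the annotation 74.0% of the Tnnc2 exon length is covered by exons of Ube2c on the opposite strand, as 67.9% of that of Tagln is by its neighbours. Both genes were chosen after their values were seen, and whether the overlap lowered either count was not tested.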
